A study of Mus musculus with 2 samples.

Results

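Imprinted genes are transcribed mainly from the copy inherited from a single parent, because DNA methylation laid down in egg or sperm marks the copies differently. They lie in clusters in which the same mark controls several genes, often with a paternally and a maternally expressed gene side by side. Many encode growth factors, their receptors and growth inhibitors, and several are active in the developing brain. The 35 imprinted genes described here were found by name, or by the current symbol of the probe's accession, among the 28780 genes with a probe on the array. All 35 had a probe, 75 probes in all. Meg3 was found under its older name Gtl2, which the RefSeq gene table lists as a synonym. Expression was summed over both copies, so which parental copy was active was not measured.

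The samples were mouse neural progenitor cells of the line N31 (strain 129/Ola), with 1 array for each group. N31 is an induced pluripotent stem cell derived neural progenitor line with doxycycline-inducible copies of the reprogramming factors (Oct3/4, Sox2, Klf4, c-Myc). The first group carried a Pax6 transgene (CAG-Pax6-IP) and the second an EGFP transgene (CAG-EGFP-IP), each driven by the broadly active CAG promoter and inserted with the Tol2 transposon. Pax6 is a paired-box transcription factor of eye and forebrain, and EGFP is a green fluorescent protein used as the control. RNA of both groups was taken 24 h after doxycycline, so both carry the induced factors and cells without doxycycline were not analysed here. By then a change of cell shape was apparent in the EGFP cells and not in the Pax6 cells, per the series description.

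Signals are the scanner software's processed intensities, and differences are Pax6 minus EGFP on the log2 scale after scaling each array to its 75th percentile. The error after ± is the software's measurement error carried to the difference. For bright spots this error follows from a multiplicative error of 0.1 set in the software, and is not a spread observed between spots. It covers neither culture nor array, and since each group has 1 array, no difference has a replicate check or a test. A gene is called here when it differed by at least 2-fold. A spot was well above background on 67.2% of the Pax6 array and 64.7% of the EGFP array. A probe is called detected when it was well above background. A gene detected on only 1 array has a lower bound, written "at least", against the lowest signal well above background there (9.30 on the Pax6 array and 10.3 on the EGFP array). Precision is limited by the number of arrays.

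The brightest Pax6 probe read 822 on the Pax6 array and 557 on the EGFP array, a difference of 0.35 ± 0.20, and a second, with 9 spots, differed by 0.26 ± 0.20. The third was detected on the Pax6 array alone (14.8, and 2.50 on the EGFP array). Whether any of the 3 reads the transgene is not known here, so the array labels were not checked by the overexpressed gene, and the direction of every difference rests on them. Of 10 neural progenitor markers, 9 were well above background on both arrays, and Hes5 was on neither. Of these, Nes (-1.66) and Slc1a3 (-3.69) were lower and Sox2 (1.74) higher on the Pax6 array. Sox2 is also one of the doxycycline-inducible factors, and whether its probe reads the induced copy is not known here. Fibroblast markers were present as well, 8 of 9 on the Pax6 array and 7 of 9 on the EGFP array, with summed signals of 62626 and 94864, and they differed in both directions (Fap, Dcn and Col3a1 at least 2-fold higher, Col1a1, Col1a2 and Thy1 at least 2-fold lower). Of 10 pluripotency markers, 8 were well above background on the Pax6 array and 6 on the EGFP array, with summed signals of 587 and 614, with Zfp42 lower (-1.49) and with Dppa4 and Lin28a on neither. Neuron markers numbered 4 of 5 on the Pax6 array and 5 of 5 on the EGFP array (sums of 4941 and 5188), with Snap25 lower (-1.66). Astrocyte markers numbered 4 of 4 on the Pax6 array and 2 of 4 on the EGFP array (sums of 793 and 416), with Aqp4 at least 3.86-fold higher. Of 5 trophoblast markers, 2 were detected on each array (sums of 849 on the Pax6 array and 675 on the EGFP array), and Cdx2, Tfap2c and Elf5 on neither. Gata3 made up most of that sum and differed by 0.15 ± 0.20, while Krt7 was 2.39-fold lower. Gfap, Pou5f1, Esrrb and Lum counted on the Pax6 array alone, with bounds of at least 1.01-fold, 1.19-fold, 1.45-fold and 1.21-fold higher. Rbfox3 counted on the EGFP array alone, at least 1.39-fold lower. Col1a2 made up most of the fibroblast sums (46506 on the Pax6 array and 90871 on the EGFP array). Aldh1l1 made up most of the astrocyte sums (675 and 369 on the same arrays). The sums are of signals before scaling. The part of these marker differences in the values below was not tested, and in RNA of whole cultures fewer cells of a type cannot be told apart from less RNA per cell.

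Most imprinted genes were close between the arrays, and a few differed strongly. Of the 35 genes, 28 were well above background on both arrays, 3 on 1 array and 4 on neither (Meg3, Rian, Mirg and Zim1). In Pax6 cells Igf2r and Asb4 were higher by at least 2-fold, and Dlk1, Slc38a4, Phlda2 and Igf2 at least 2-fold lower. These 6 are 19.4% of the 31 genes used, against 4.77% of all 19251 genes used (2.35% higher and 2.43% lower). The genes were chosen with results of these arrays known, so the 2 shares are a description and were not tested against each other. The other 25 genes were within 2-fold or had bounds below it. Of the 28 genes measured on both arrays, 21 were within 1.5-fold, against 88.1% of all genes measured on both. The median difference of the 31 genes was -0.14, and that of all genes used was -0.01. The gene nearest above the 2-fold rule was Igf2 (2.11-fold), and the nearest below it among genes measured on both arrays was Peg12 (1.65-fold).

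**Figure D1:**
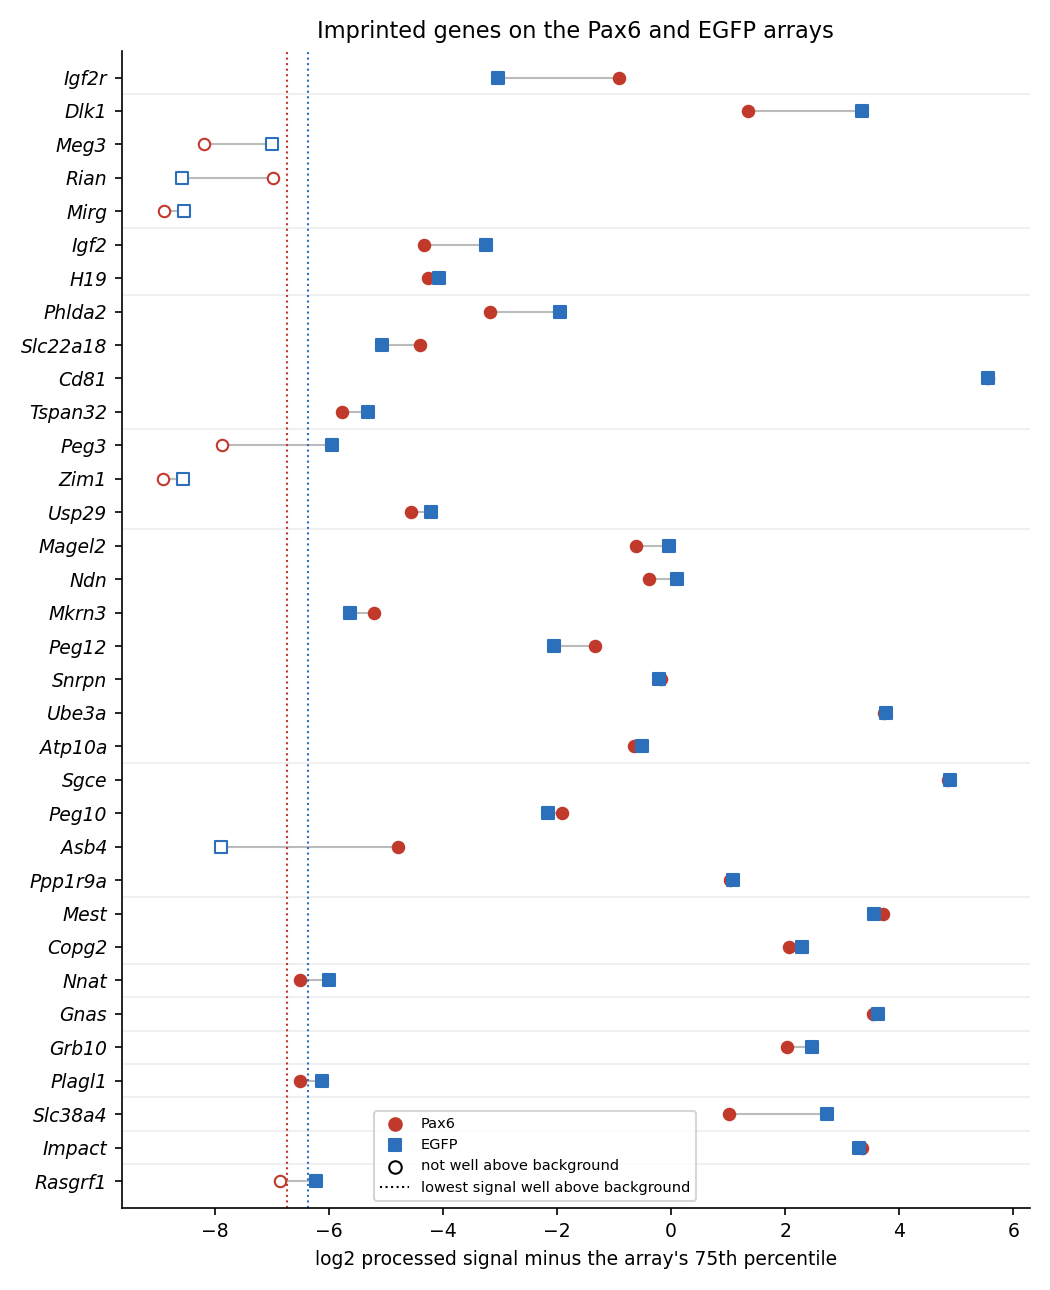
Scaled log2 signal (x axis, relative to the 75th percentile of each array) of the brightest probe of 34 of the 35 imprinted genes, ordered by cluster and separated by grey lines, with red circles for the Pax6 array and blue squares for the EGFP array. Open symbols are not well above background and dotted lines mark the lowest signal that was. Igf2r and Asb4 lie to the right on the Pax6 array, while Dlk1, Slc38a4, Phlda2 and Igf2 lie to the left, and levels of different genes cannot be compared because probes differ.

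The Igf2r gene encodes the cation-independent mannose 6-phosphate receptor, which carries lysosomal enzymes and removes Igf2 from the cell surface for degradation. Its single probe (chromosome 17, 11399590 to 11399648 of build mm7) read 525 on the Pax6 array and 105 on the EGFP array. This is a difference of 2.11 ± 0.21, or 4.33-fold higher in Pax6 cells, and the largest rise among the 28 of the 35 genes measured on both arrays. In mouse most tissues transcribe Igf2r from the maternal copy, and the paternal copy is silenced with the help of the antisense RNA Airn, which starts within Igf2r on the paternal chromosome. Airn, listed on the array as Air, had 3 probes. Its brightest probe read 854 on the Pax6 array and 512 on the EGFP array, a difference of 0.52 ± 0.20, a second differed by 0.57 ± 0.21, and the third by -0.02 ± 0.21. No Airn probe was lower by more than its error. The strand of the Airn probes was not checked here, and a link between Airn and the Igf2r difference was not tested. Neither array detected Slc22a2 or Slc22a3, the other genes controlled by Airn in mouse placenta.

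The growth factor gene Igf2, paternally expressed and a ligand of Igf2r, was lower in Pax6 cells. Its brightest probe (chromosome 7, 139078075 to 139078135) averaged a signal of 49.4 on the Pax6 array and 89.8 on the EGFP array over 8 of its 10 replicate spots, the others being outliers. The difference was -1.08 ± 0.22, or 2.11-fold lower, with an SD of 0.08 over the replicate spots. A second probe read 16.6 and 23.3 on the Pax6 and EGFP arrays, a difference of -0.70 ± 0.32 that is within 2-fold. The call is a narrow one, since Igf2 differed by -0.54 with normexp background correction, an added offset of 50 and quantile normalization (called the normexp alternative), and by -0.89 as the mean of both probes. H19, the maternally expressed noncoding RNA that shares its control region with Igf2, differed by -0.20 ± 0.22 (signals of 51.4 and 50.7 on the Pax6 and EGFP arrays). A second H19 probe was detected on the Pax6 array alone, with a bound of at least 1.09-fold higher. The size of the difference was thus 2.11-fold for the paternal gene of this cluster, and for the maternal gene it was within the measurement error.

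Of the 17 other genes listed for Igf signalling, 16 had a probe and 14 were well above background on both arrays. Igfbp7, of the Igf-binding protein related family, was at least 2-fold lower (signals of 160 on the Pax6 array and 459 on the EGFP array, -1.73 ± 0.21). None of the 14 was at least 2-fold higher, and their median difference was -0.12. Over all genes used, 2.35% were at least 2-fold higher and 2.43% lower, and 14 genes are too few to stand apart from those shares. The receptor genes Igf1r and Insr differed by -0.15 ± 0.20 and 0.11 ± 0.36, and the ligand gene Igf1 by -0.59 ± 0.21. Grb10, which encodes an adaptor that inhibits insulin and Igf receptor signalling, read 4064 on the Pax6 array and 4744 on the EGFP array, a difference of -0.44 ± 0.20. It is expressed from the maternal copy in most mouse tissues and from the paternal copy in neurons, from different promoters. Its 3 probes were all lower on the Pax6 array (-0.44, -0.47 and -0.93), the last at 1.91-fold.

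In the Dlk1-Dio3 cluster, the paternal and the maternal genes could not be compared because the maternal RNAs were not detected. Dlk1, also called Pref-1, is a paternally expressed membrane protein with EGF repeats that holds back differentiation, for example of adipocytes. Its brighter probe (chromosome 12, 106981689 to 106981748) read 2527 on the Pax6 array and 8660 on the EGFP array, a difference of -1.99 ± 0.20, or 3.98-fold lower in Pax6 cells. A second probe gave a similar size, with signals of 621 on the Pax6 array and 2208 on the EGFP array and a difference of -2.04 ± 0.20. The fall of Dlk1 was the largest among the 28 of the 35 genes measured on both arrays, and both arrays still read Dlk1 far above background. Dio3, the paternal deiodinase gene at the other end of the cluster, was not well above background on either array.

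Meg3, Rian and Mirg are noncoding RNAs of the same cluster transcribed from the maternal copy. The 5 Meg3 probes lay between 1.93 and 7.57 on the Pax6 array and between 2.28 and 6.72 on the EGFP array, all below the lowest signal well above background. The 2 Rian probes read 7.85 and 2.11 on the Pax6 array and 2.24 and 2.27 on the EGFP array. The Mirg probe read 2.10 on the Pax6 array and 2.30 on the EGFP array. None of these 8 probes was well above background on either array, which sets a limit on signal and does not show that the RNAs were absent. In the RefSeq annotation these 3 genes span 14 microRNA hairpins, 1 in Meg3, 3 in Rian and 10 in Mirg. As background, loss of Meg3 and Rian with Dlk1 present is known from some mouse induced pluripotent stem cell clones. Whether this applies to the cells studied here was not tested.

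In the Kcnq1 domain, next to Igf2 and H19 on chromosome 7, only Phlda2 passed 2-fold among the 4 genes described. Phlda2, a pleckstrin homology domain gene that restrains placental growth in mouse and is maternally expressed, read 110 on the Pax6 array and 221 on the EGFP array (chromosome 7, 139928849 to 139928908). The difference was -1.22 ± 0.21, or 2.34-fold lower. A second probe read 26.6 and 71.1 on the Pax6 and EGFP arrays and differed by -1.63 ± 0.24, but it overlaps the first and is not independent of it. Under the normexp alternative the difference of Phlda2 was -0.90, within 2-fold. Its neighbour Slc22a18, a transporter-like gene expressed from the same parental copy, lay the other way but within 2-fold. Slc22a18 read 47.1 on the Pax6 array and 25.3 on the EGFP array (0.68 ± 0.25), and differed by 0.26 under the normexp alternative. A second Slc22a18 probe was detected on neither array (3.30 on the Pax6 array and 6.42 on the EGFP array). The tetraspanin gene Cd81 differed by -0.02 ± 0.20. The tetraspanin gene Tspan32 was dim, with probes of opposite sign (-0.45 ± 0.30 for the probe measured on both arrays). Kcnq1ot1, the paternal noncoding RNA that silences the domain in cis, read 2292 on the Pax6 array and 1925 on the EGFP array, a difference of 0.04 ± 0.20.

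Slc38a4, a paternally expressed amino acid transporter gene, was lower in Pax6 cells on both of its probes. The brighter probe (chromosome 15, 96996450 to 96996509) read 1995 on the Pax6 array and 5688 on the EGFP array, a difference of -1.73 ± 0.20, or 3.31-fold lower. The other probe read 342 on the Pax6 array and 1128 on the EGFP array and differed by -1.94 ± 0.20. Under the normexp alternative the difference was -1.69.

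Asb4, an ankyrin repeat and SOCS box gene of the Peg10 cluster that is maternally expressed, was seen on the Pax6 array only. Its brighter probe (chromosome 6, 5385772 to 5385831) read 35.8 on the Pax6 array, and 3.58 on the EGFP array, where it was not well above background. This gives a bound of at least 2.98-fold higher, and a difference of 3.11 ± 0.88 as measured. Its second probe was not well above background on either array, and under the normexp alternative the difference was 0.58, so Asb4 rests on a single dim probe. The other genes of the cluster did not differ by 2-fold. Sgce, the epsilon-sarcoglycan gene, differed by -0.03 ± 0.20, the retrotransposon-derived Peg10 by 0.26 ± 0.21, and Ppp1r9a, which encodes the actin-binding protein neurabin I, by -0.05 ± 0.20.

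The 250 bases upstream of the annotated start are shown for Igf2r, which was higher in Pax6 cells, for Slc38a4 and Igf2, which were lower, and for the undetected Meg3. They are RefSeq sequence of build GRCm38.p6, written in the direction of the gene, with CG dinucleotides, the sites of DNA methylation, in capitals. Igf2, Slc38a4 and Meg3 have further annotated starts, and the arrays do not tell which start was used. For these genes the bases shown lie upstream of the outermost start, and CG counts at their other starts are not given.
Igf2r, chr17:12769707-12769956, minus strand: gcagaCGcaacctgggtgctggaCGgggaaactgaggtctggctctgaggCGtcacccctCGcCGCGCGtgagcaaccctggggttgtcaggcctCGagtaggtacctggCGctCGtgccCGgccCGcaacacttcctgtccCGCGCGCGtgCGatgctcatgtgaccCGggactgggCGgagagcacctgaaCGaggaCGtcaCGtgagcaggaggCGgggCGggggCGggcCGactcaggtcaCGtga
Slc38a4, chr15:97055957-97056206, minus strand: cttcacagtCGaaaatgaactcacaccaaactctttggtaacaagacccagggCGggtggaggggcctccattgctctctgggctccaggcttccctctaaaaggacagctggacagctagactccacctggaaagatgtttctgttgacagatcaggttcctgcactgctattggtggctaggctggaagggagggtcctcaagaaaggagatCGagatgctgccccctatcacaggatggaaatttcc
Igf2, chr7:142666817-142667066, minus strand: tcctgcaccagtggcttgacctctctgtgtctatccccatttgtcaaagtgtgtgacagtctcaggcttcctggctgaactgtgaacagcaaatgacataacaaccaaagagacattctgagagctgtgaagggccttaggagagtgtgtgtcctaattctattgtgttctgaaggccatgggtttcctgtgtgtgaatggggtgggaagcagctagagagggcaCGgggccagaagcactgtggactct
Meg3, chr12:109540746-109540995, plus strand: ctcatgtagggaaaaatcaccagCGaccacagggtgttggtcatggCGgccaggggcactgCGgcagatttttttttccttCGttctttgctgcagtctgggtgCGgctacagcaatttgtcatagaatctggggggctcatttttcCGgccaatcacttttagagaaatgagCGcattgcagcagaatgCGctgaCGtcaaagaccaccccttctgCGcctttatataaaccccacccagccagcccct

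The windows differ widely in CG content. The Igf2r window holds 27 CG dinucleotides, and 8.56% of all 32851 RefSeq windows hold at least as many. The Slc38a4 window holds 3 (71.0% of windows hold at least as many), the Igf2 window 1 (92.1%) and the Meg3 window 10 (37.8%). The median of all windows was 6. The letters TGCCGC, which the imprint-protecting protein Zfp57 recognises when methylated, were searched on both strands and found 1 time in the Meg3 window and 0 times in the other 3, and 8.68% of all windows hold them. Neither count was measured in these cells, and methylation was not measured.

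The 7 genes of the Snrpn cluster, the mouse counterpart of the Prader-Willi and Angelman region, were all detected on both arrays and all within 2-fold. Among all 19251 genes used, 18332 were within 2-fold or had bounds below it. Peg12, also called Frat3 and paternally expressed, read 393 on the Pax6 array and 205 on the EGFP array, a difference of 0.72 ± 0.20. The MAGE family genes Magel2 and Ndn lay on the other side. Magel2 read 648 on the Pax6 array and 833 on the EGFP array (-0.58 ± 0.20), and Ndn, the gene of the growth suppressor necdin, 756 and 918 on the same arrays (-0.49 ± 0.20). Mkrn3, a ring finger gene, was dim and differed by 0.43 ± 0.29. Snrpn, the gene of the splicing protein SmN, differed by 0.02 ± 0.20, and a second, overlapping probe by 0.31 ± 0.20. Ube3a, the ubiquitin ligase gene that is silenced on the paternal copy in neurons, differed by -0.05 ± 0.20 and the flippase gene Atp10a, for which reports of imprinting in mouse differ, by -0.14 ± 0.20. The signs differed among neighbouring paternally expressed genes of this cluster. All these values are within 2-fold and have no replicate, so they do not settle a direction for any of the genes.

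The Peg3 cluster was dim. Peg3, a paternally expressed zinc finger gene, read 4.20 on the Pax6 array, where it was not well above background, and 13.8 on the EGFP array. Peg3 was therefore at least 1.72-fold lower in Pax6 cells, a bound that sets no upper limit, with a difference of -1.93 ± 0.72 as measured. Its other 2 probes were detected on neither array. Usp29, a paternally expressed deubiquitinase gene with a start close to that of Peg3, read 41.9 on the Pax6 array and 45.9 on the EGFP array, a difference of -0.35 ± 0.22. Zim1, a maternally expressed zinc finger gene, was detected on neither array.

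The tail-to-tail neighbours Mest and Copg2 differed little. Mest, a paternally expressed gene of the alpha/beta hydrolase fold family, read 13040 on the Pax6 array and 10054 on the EGFP array, a difference of 0.16 ± 0.20. Copg2, a coatomer subunit gene reported as maternally expressed, differed by -0.22 ± 0.20, and its 3 probes by -0.25 to -0.05. The strand was checked for the 68 probes of these imprinted genes where the strands of both probe and gene were available. All 68 lie on the strand of their gene, when a coordinate written from high to low is read as the minus strand.

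At Gnas, where several promoters give transcripts from different parental copies, the array had 8 probes. The 2 brightest read 11520 and 4658 on the Pax6 array and 10581 and 4748 on the EGFP array. They differed by -0.09 ± 0.20 and -0.24 ± 0.20. By name the first is of the G protein alpha subunit, which is expressed from both copies in most tissues. The second is by name of transcript variant 1 of the locus. Which transcripts these 2 probes read is not known here, so their signals are not assigned to a parental copy. The probe of transcript variant 3 was dim and differed by 0.02 ± 0.35. The probe of the noncoding RNA at exon 1A read 68.9 on the Pax6 array and 84.1 on the EGFP array, a difference of -0.50 ± 0.21. A probe of the XLalphas transcript was detected on the Pax6 array alone (12.2, and 2.06 on the EGFP array), a bound of at least 1.02-fold higher. Another probe, of a full-length clone, was detected on the EGFP array alone (8.48 on the Pax6 array and 11.9 on the EGFP array), a bound of at least 1.49-fold lower. No Gnas probe measured on both arrays differed by 2-fold.

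The remaining genes are single loci, all paternally expressed. Impact, a regulator of the translation control kinase Gcn2, differed by 0.05 ± 0.20. Nnat, the neuronatin gene of neuronal membranes, and Plagl1, a zinc finger gene that regulates other imprinted genes in mouse, were near the limit of detection. Nnat read 10.9 on the Pax6 array and 13.3 on the EGFP array (-0.50 ± 0.42), and Plagl1 10.9 and 12.2 on the same arrays (-0.37 ± 0.42). Rasgrf1, a Ras activator gene of neurons, was well above background on the EGFP array only and at least 1.43-fold lower in Pax6 cells.

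By the parental copy known to be expressed, the called genes fell on both sides. Of 18 paternally expressed genes all were used, and 3 were at least 2-fold lower (Dlk1, Slc38a4 and Igf2) and 0 at least 2-fold higher, with a median of -0.36. Of 15 genes assigned to the maternal copy 11 were used, and 2 were at least 2-fold higher (Igf2r and Asb4) and 1 lower (Phlda2), with a median of -0.05. The maternal group includes Atp10a, for which reports of imprinting differ, and Ube3a, whose paternal copy is silenced in neurons. Grb10 and Gnas, which vary by transcript or tissue, are in neither group. The 4 genes that were not detected are all maternally expressed, but Meg3, Rian and Mirg among them share the Dlk1-Dio3 cluster. These groups were not tested against each other, and 2 of the 18 paternal genes (Peg3 and Rasgrf1) and 1 of the 11 maternal genes (Asb4) enter as bounds. Over all genes used, 2.35% were at least 2-fold higher and 2.43% lower, so a count of 0 higher among 18 genes is near the background.

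**Figure D2:**
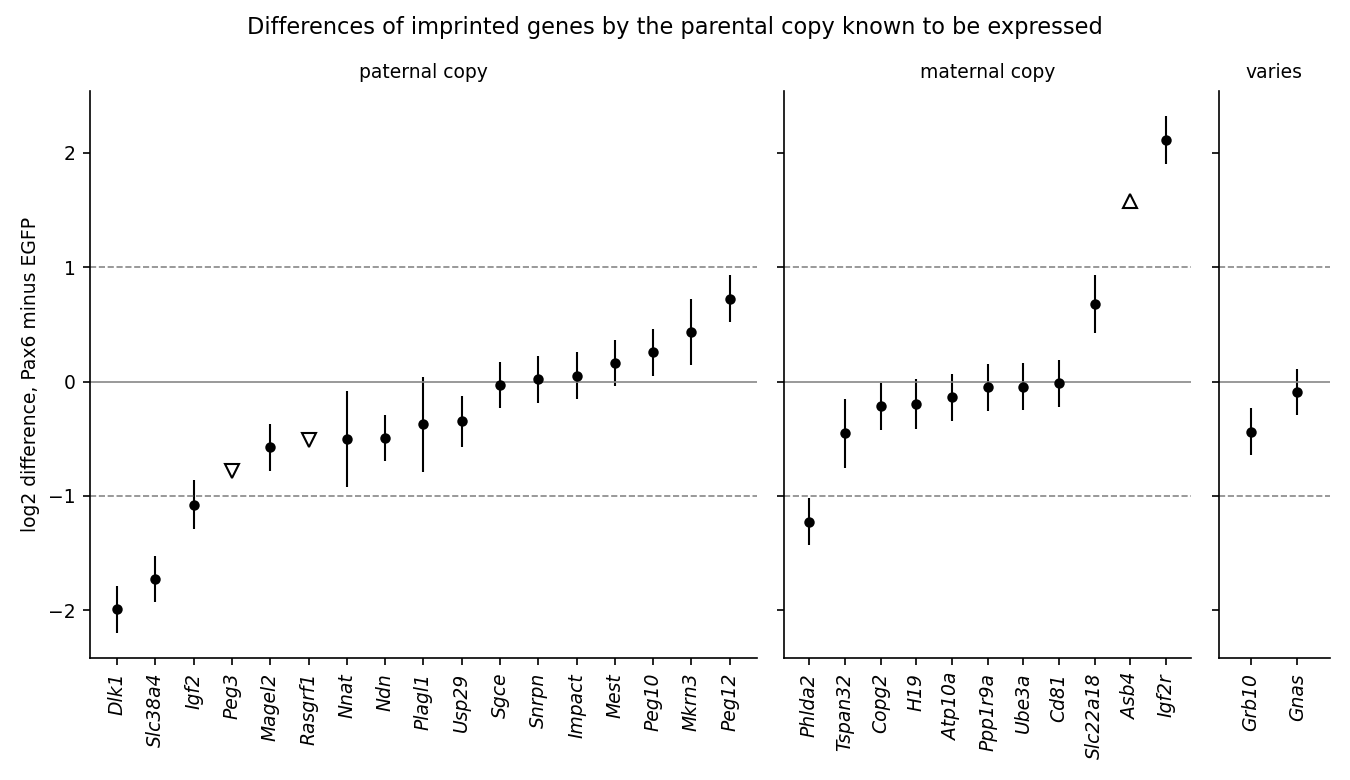
Log2 difference, Pax6 minus EGFP (y axis), of 30 of the 31 imprinted genes used, grouped by the parental copy known to be expressed. Points carry the measurement error, open triangles are bounds that point away from 0, and dashed lines mark 2-fold. Dlk1, Slc38a4 and Igf2 lie below the lower line among paternal genes, Phlda2 below it among maternal genes, and Igf2r and Asb4 above the upper line.

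Of 48 further imprinted genes, 40 had a probe and 27 were well above background on both arrays, with 1 higher and 1 lower by at least 2-fold and a median of 0.01. The higher gene was Dcn, the proteoglycan decorin, which is imprinted in mouse placenta and is also one of the fibroblast markers (signals of 1644 on the Pax6 array and 184 on the EGFP array, 2.95 ± 0.21). The lower gene was Ampd3, an AMP deaminase gene (17.1 on the Pax6 array and 40.5 on the EGFP array, -1.46 ± 0.27). The growth inhibitor gene Cdkn1c was not well above background on either array. Of 22 regulators of imprinting, 20 had a probe, 19 were well above background on both arrays and 0 differed by 2-fold, with a median of -0.03 and a range from -0.90 to 0.76. The methyltransferase gene Dnmt1 differed by -0.07 ± 0.20, its partner gene Uhrf1 by 0.18 ± 0.20, Zfp57 by -0.24 ± 0.21 and its corepressor gene Trim28 by 0.21 ± 0.20. Over all genes used, 4.77% were called, and both lists are too small for their counts to stand apart from it. At the ends of the range of regulators were Dnmt3l, a cofactor of de novo methylation in germ cells (-0.90 ± 0.24), and Nlrp2, a maternal-effect gene (0.76 ± 0.21).

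**Figure D3:**
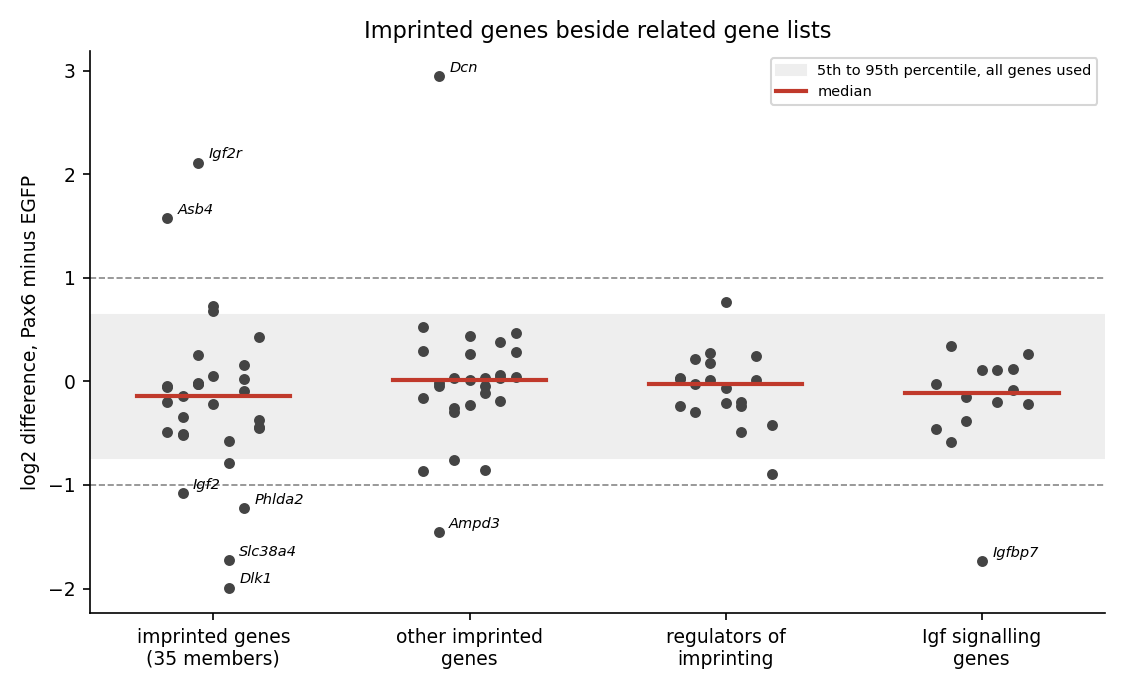
Log2 difference, Pax6 minus EGFP (y axis), of each gene used in the 35 imprinted genes and 3 related lists, with the list median in red and genes at least 2-fold different named. The grey band spans the 5th to the 95th percentile of all genes used (-0.74 to 0.64), bounds are plotted at their value, and dashed lines mark 2-fold. The medians lie between -0.14 and 0.01.

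The 6 called genes did not depend on the processing to the same degree. Dlk1, Slc38a4 and Igf2r stayed at least 2-fold different under all 11 alternatives that recompute a gene's value, with ranges of -2.02 to -1.91, -1.83 to -1.64 and 1.63 to 2.19. Several of the 11 could not move these values. The deposited series table was identical, and the filter and dim-value settings leave genes detected on both arrays unchanged. The mean or median of probes cannot change Igf2r, which has a single probe. Phlda2 and Asb4 were within 2-fold under 1 alternative each, normexp with its offset and quantile normalization. Quantile normalization alone left them past 2-fold (-1.18 for Phlda2 and at least 1.62 on the log2 scale for Asb4). For Asb4 only 10 alternatives give a value, because the filter on both arrays leaves it out. Igf2 was within 2-fold under 4 of 11. No called gene changed sign.

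**Figure D4:**
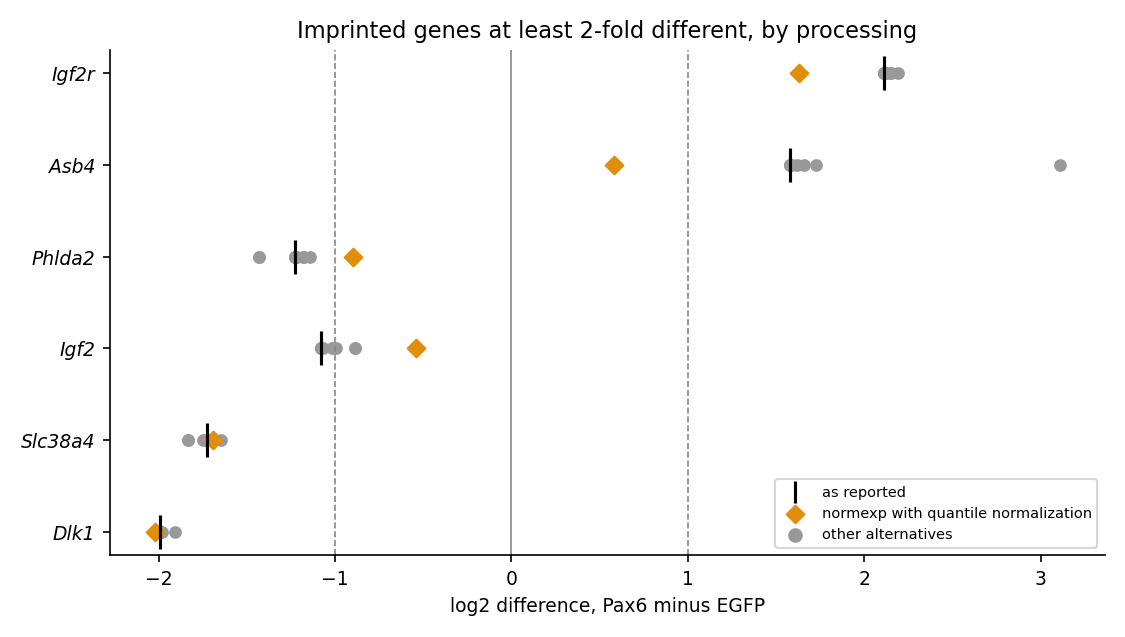
Log2 difference, Pax6 minus EGFP (x axis), of the 6 imprinted genes at least 2-fold different, as reported (black bars), with normexp background correction, an offset of 50 and quantile normalization (orange diamonds) and under the other alternatives (grey points). Dashed lines mark 2-fold. Dlk1, Slc38a4 and Igf2r stay outside the lines under each alternative, while the diamonds of Phlda2, Igf2 and Asb4 lie inside.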

How the data were processed

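Total RNA was extracted with ISOGEN, amplified linearly and labelled with Cy3, per the labels' protocols, and hybridised to 1 whole mouse genome array for each group. The deposited intensity values are processed signals of Agilent Feature Extraction 10.7.3.1, with background removed and a trend across each array corrected, per the file headers, and without normalization between arrays. The deposited flags state whether a spot was well above background (by 13 background SDs), saturated or an outlier, per the file headers. No spot was saturated. Intensity values of the deposited series table were identical to these. Both arrays share a slide and a scan.

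Of 43379 non-control spots of 41174 probes, 52 on the Pax6 array and 51 on the EGFP array were outliers and were left out on both. Signals were divided by the array's 75th percentile (991 on the Pax6 array and 854 on the EGFP array) and put on the log2 scale, and replicate spots were averaged. Each gene took its brightest probe. Genes well above background on at least 1 array were used, 19251 in all, 1419 of them as bounds. Names came from accessions matched to RefSeq symbols where possible. Coordinates are those of the array design (mm7), and exons and untranslated regions were not annotated here. Probe sequences were not used here. The parental copy and the roles of genes are textbook background.

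All of the 35 genes were to be named, and 1 of them, which is in every count, is not reported by name here. The genes and the lists were chosen with earlier results of these data known. No test was made with 1 array per group. Alternatives covered scaling, background correction, probes of a gene, the filter, dim values and the size rule. The steps were tested on simulated data of 19251 genes for Pax6 against EGFP. At a log2 change of 1.5 they recovered 99 of 100 genes, at 2.0 they recovered 100 of 100, and 4 unchanged genes were called. Variation between cultures or arrays cannot be estimated from 1 array per group, so these counts give no error rate for the real calls. Changes closer to the 2-fold rule were not simulated. limma 3.58.1 in R 4.3.3 and pandas 2.3.3 were used.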

Additional observations from a re-analysis of the deposited data

How the results depend on the processing

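The count of imprinted genes higher in Pax6 cells by at least 2-fold was 2, and was 1 with normexp background correction, an offset of 50 and quantile normalization (called normexp), with a filter on both arrays, at 3-fold, and when more than 2 times the measurement error was also required. Asb4 was the gene lost in each of these cases. The count at least 2-fold lower was 4, and was 2 with normexp and at 3-fold. With quantile normalization alone the counts were 2 higher and 4 lower. Under the other alternatives the counts were 2 or 3 higher and 3 to 5 lower. The median of the imprinted genes ranged from -0.20 to -0.02. Of 338 values of single genes under alternatives, 323 moved by less than the measurement error, 15 moved by more and 0 called values changed sign. Many of the 338 could not move, because the identical series table, the filter or the probe rule left that gene's value unchanged. Differences close to 0 changed sign under 1 to 3 alternatives in genes that include Cd81, Gnas, H19, Plagl1, Ppp1r9a, Sgce and Ube3a. Probes of a gene disagreed in sign in 4 of the 11 genes with several measured probes. Igf2 was -1.08 as reported, -0.54 with normexp and -0.89 as the mean or median of its probes. Over all genes, 49.2% of the 2-fold calls were higher (452 higher and 467 lower), and this share was 61.8% with normexp (176 and 109) and 59.3% after scaling by the median (538 and 370). The cause was not tested. Signal over background limits Peg3, Asb4, Nnat, Plagl1, Rasgrf1, Tspan32 and the 4 undetected genes. No paired analysis was possible because each group has 1 array and its number comes from no label.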
